A study of Mus musculus with 16 samples.

Results

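Genes along mouse chromosome 8 were followed in E14 cells, a mouse embryonic stem (ES) cell line, that carried a lentiviral short hairpin RNA against Sirt1 (sh-SIRT1) or a control hairpin (sh-Control). Each culture carried 1 of these hairpins, in vehicle and under treatment alike, so no group lacks a hairpin vector. The treatment was 20 nM retinoic acid (RA) or its ethanol vehicle, for 2 days, and there were 3 sh-Control vehicle, 3 sh-SIRT1 vehicle, 4 sh-Control RA and 6 sh-SIRT1 RA arrays. Nothing in the labels says which arrays came from separate cultures, so p-values reflect array-to-array spread, part or all of which may be technical.

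A gene was a member if its probe lay on chromosome 8 of the mouse build mm7 and was called well above background throughout 1 or more of the 4 groups, with the brightest probe standing for the gene. This gave 961 genes of 18282 tested, against 16370 genes on the other autosomes. The probes of these genes ran from position 3051011 to position 127817645 of chromosome 8. The chromosome itself was chosen by the hairpin differences of its genes in these same arrays, in vehicle and under RA, so those differences are a description below. Counts of limma calls stand beside them with the share of all genes called, and nothing is read from those counts. Membership itself rested on signal: 845 members were above background on all 16 arrays, and 44 were above it throughout only 1 group. These 44 had a median level of -5.38, as log2 of intensity over the 75th percentile of the array, the scale of all levels below. Another 31 genes, 1 array short of the rule, had a median level of -5.64, and 395 of 1356 gene names on chromosome 8 were not kept.

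ES cells in culture keep the ability to form all embryonic lineages, and RA is a standard signal that pushes them to differentiate. Extra copies of chromosome 8 are a well known recurrent change of cultured mouse ES cells, and RNA levels of many genes scale with copy number. DNA copy number was not tested here. The hairpin and the history of the line that carries it cannot be told apart in this design.

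The Sirt1 probe checked the labels, with levels of 3.53 to 3.85 on sh-Control vehicle arrays, 1.83 to 1.89 on sh-SIRT1 vehicle arrays, 3.28 to 3.48 on sh-Control RA arrays and 0.92 to 1.59 on sh-SIRT1 RA arrays. All 7 ES cell markers checked were above background on every array of every group. The sh-Control RA arrays stood apart from each other at Y-linked genes. Ddx3y had a level of 0.23 on sh-Control RA array 1 and of -6.91, -8.01 and -8.12 on arrays 2, 3 and 4, and Eif2s3y had 1.98 against -2.89, -2.53 and -2.51. For genes described below, a value that rests on the sh-Control RA group is also given with array 1 as its only array where that ends a call or moves a difference by over 1.5 times; the fit then assumes that this array varies like the others.

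In vehicle, genes along the whole of chromosome 8 were higher in sh-SIRT1 than in sh-Control cells. The median log2 difference (sh-SIRT1 minus sh-Control) was 0.36, a 1.28-fold higher level, with 79.5% of the 961 genes above 0. Genes on the other autosomes had a median of -0.03, with 46.5% above 0. The quartiles of the chromosome 8 genes, 0.07 and 0.56, show a broad, shallow shift and not a few strongly changed genes. In limma, 232 members were called higher and 15 lower at an adjusted p under 0.05, where 8.62% of all genes were called, 4.41% higher and 4.21% lower. With the replicate number as a block, 355 were called higher and 37 lower, where 19.2% of all genes were called. Every sh-SIRT1 array exceeded every sh-Control array at 549 members, where 18.5% of all genes did so.

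Under RA the shift was uneven along the chromosome. The median over all members was 0.26, with 75.2% above 0, against -0.05 on the other autosomes. In limma, 302 members were called higher and 29 lower, where 20.3% of all genes were called, 8.59% higher and 11.7% lower. All 6 sh-SIRT1 arrays exceeded all 4 sh-Control arrays at 262 members, where 6.46% of all genes did so. Of the 961 members, 626 were above 0 in both treatments and 100 were below 0 in both. Arrays that shared a slide gave chromosome 8 medians of 0.34 and 0.31 in vehicle (slides 1 and 3), and of 0.15, 0.20 and 0.41 under RA (slides 1, 2 and 4). The highest of these came from slide 4, which holds sh-Control RA array 1.

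Position was examined in 13 windows of 10 Mb, with 26 to 149 genes each. In vehicle all 13 window medians were above 0, from 0.17 at 110 to 120 Mb to 0.62 at 50 to 60 Mb. All 13 also exceeded 0.12, the 95th percentile of 233 windows on the other autosomes. The windows from 20 to 30 Mb, 40 to 50 Mb, 50 to 60 Mb and 60 to 70 Mb, at 0.50, 0.60, 0.62 and 0.44, exceeded every window elsewhere. The highest window on another autosome was 80 to 90 Mb of chromosome 12, with a median of 0.42 over 89 genes in vehicle and of 0.35 under RA.

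Under RA the first 9 windows had medians of 0.24 to 0.46. The last 4 windows, from 90 Mb to the end of the chromosome, had 0.05, 0.10, -0.01 and 0.06. The 95th percentile of the 233 windows on the other autosomes was 0.0502 under RA. Of the 13 windows 11 exceeded it, all but those of 90 to 100 Mb and 110 to 120 Mb. Over genes, the 586 members before 90 Mb had medians of 0.42 in vehicle and 0.36 under RA, whereas the 375 members beyond 90 Mb had 0.28 and 0.08. The border at 90 Mb was chosen after the window values were seen. With array 1 as the only sh-Control RA array, the last 4 windows had medians of 0.36, 0.51, 0.27 and 0.44.

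**Figure D1:**
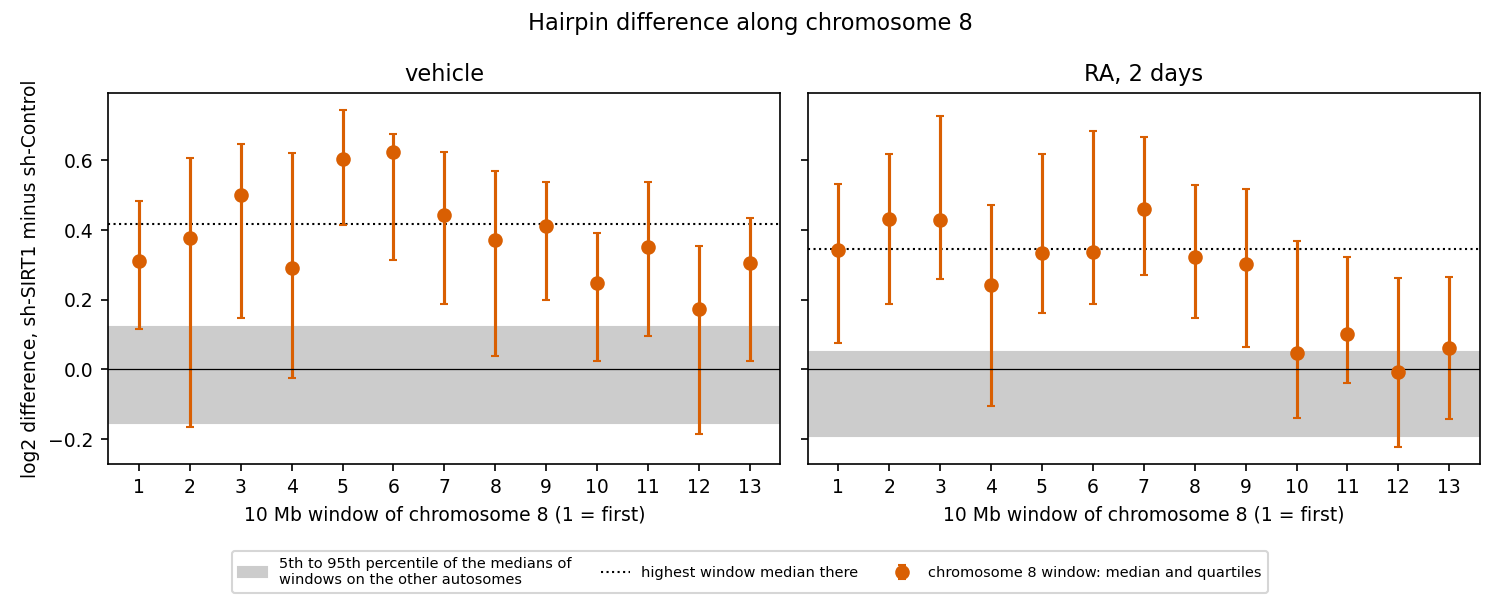
Log2 difference between hairpins (vertical axis, sh-SIRT1 minus sh-Control) for genes in each 10 Mb window of chromosome 8 (horizontal axis, window 1 first), in vehicle (left) and under RA (right). Points are window medians, bars span the quartiles over genes, the grey band is the 5th to 95th percentile of window medians on the other autosomes and the dotted line is the highest of those. In vehicle all 13 points lie above the band. Under RA 11 of the 13 do, and the last 4 lie at -0.01 to 0.10.

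The arrays were then compared one by one. For each array a relative level was computed, the log2 level of a gene minus its sh-Control vehicle mean, less the median of the same quantity over the other autosomes. Over the genes before 90 Mb, the median relative level was -0.01 to 0.01 on the sh-Control vehicle arrays and 0.49, 0.43 and 0.39 on the sh-SIRT1 vehicle arrays. On the sh-Control RA arrays it was -0.04, -0.04, -0.03 and -0.04, and on the sh-SIRT1 RA arrays it ran from 0.33 to 0.45. Every sh-SIRT1 array was thus high in this stretch and every sh-Control array was near 0 over the stretch as a whole, although single windows of the sh-Control RA arrays departed from 0, most of all at 40 to 50 Mb.

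Beyond 90 Mb the sh-Control RA arrays differed from each other. Their median relative levels were -0.16 on array 1 and 0.51, 0.26 and 0.29 on arrays 2, 3 and 4. The sh-SIRT1 arrays had 0.36, 0.27 and 0.27 in vehicle and 0.32 to 0.37 under RA, and the sh-Control vehicle arrays had -0.10, 0.05 and 0.06. In the distal stretch, arrays 2, 3 and 4 of sh-Control RA thus lay near or above the sh-SIRT1 arrays, and in the proximal one they lay with the other sh-Control arrays. Counted by gene, 147 of 375 distal members were above 0 on array 1, and 305, 269 and 272 on arrays 2, 3 and 4. Among the 586 proximal members the counts were 282, 277, 274 and 276. The arrays that were high in the distal stretch are the same 3 that were low at Ddx3y and Eif2s3y. Whether these arrays come from a different culture was not tested.

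In windows of 2.5 Mb, also chosen after the data were seen, the sh-Control RA arrays split between 87.5 and 95 Mb. At 85 to 87.5 Mb the 4 arrays had 0.32, 0.30, 0.21 and 0.22 over 20 genes. At 92.5 to 95 Mb they had -0.11, 0.51, 0.24 and 0.27 over 51 genes. The windows between these hold only 8 and 10 genes and were not read further.

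**Figure D2:**
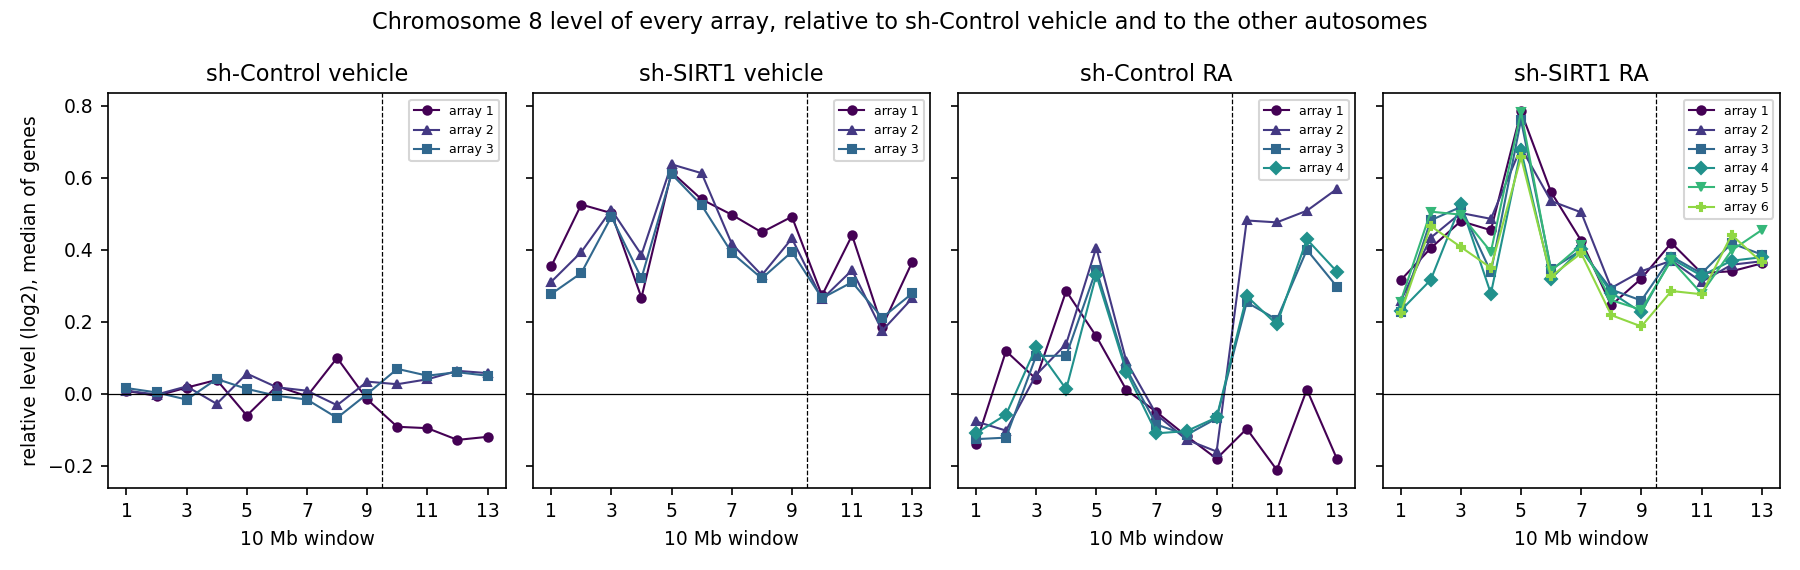
Relative level of every array (vertical axis, log2, median over the genes of a window) along the 10 Mb windows of chromosome 8 (horizontal axis), with a panel for each group. Lines join the windows of 1 array and the dashed line marks 90 Mb. The sh-SIRT1 arrays stay above 0 throughout, while sh-Control RA arrays 2, 3 and 4 all lie above array 1 in each window right of the dashed line.

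The size of the difference varied with the brightness of the probe. With members split by mean level into 4 bins of like size, the vehicle medians from the dimmest to the brightest bin were 0.13, 0.31, 0.42 and 0.41. Under RA they were 0.25, 0.30, 0.27 and 0.23, and on the other autosomes the vehicle medians ran from -0.16 in the dimmest bin to 0.03 in the brightest. Other kept probes of the same genes, 409 probes of 310 genes, had the same sign as the chosen probe in 91.7% of cases in vehicle and 85.6% under RA.

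A typical gene of each stretch makes the pattern concrete. The gene nearest to the median of its window was taken for this purpose. Erlin2 (probe at chr8:25794842-25794901, window of 20 to 30 Mb), a protein of the endoplasmic reticulum membrane, had levels of 1.42, 1.40 and 1.32 in sh-Control vehicle and 1.99, 1.89 and 1.89 in sh-SIRT1 vehicle. Under RA it had 1.49, 1.51, 1.43 and 1.43 in sh-Control and 1.81 to 2.04, with a median of 1.86, in sh-SIRT1. The hairpin groups did not overlap in either treatment, and the differences were 0.54 (standard error, SE, 0.08) and 0.43 (SE 0.06).

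Xab2, a protein of transcription-coupled DNA repair and splicing near the start of the chromosome, differed by 0.27 (SE 0.12) in vehicle and 0.29 (SE 0.09) under RA, or 0.47 against array 1 alone. Coprs, a partner of an arginine methyltransferase, differed by 0.59 (SE 0.08) and 0.20 (SE 0.07). Ccdc124 differed by 0.46 (SE 0.15) and 0.41 (SE 0.12). All 3 lie before 90 Mb, and their differences were positive in both treatments.

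Distal genes behaved differently under RA. Cyb5b (chr8:105783749-105783808), an outer mitochondrial membrane cytochrome, had levels of 4.13, 4.05 and 3.97 in sh-Control vehicle and 4.91, 4.58 and 4.50 in sh-SIRT1 vehicle, a difference of 0.61 (SE 0.22). Under RA it had 3.21 on sh-Control array 1 but 4.44, 3.93 and 3.86 on arrays 2, 3 and 4, beside 3.62 to 3.86 in sh-SIRT1, a difference of -0.11 (SE 0.17). The vehicle groups were separate, whereas under RA only array 1 lay below the sh-SIRT1 arrays. Set against array 1 alone, the sh-SIRT1 arrays were higher by 0.54.

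Gnpat, an enzyme of ether lipid synthesis near the distal end, went from 0.36 (SE 0.19) in vehicle to -0.05 (SE 0.15) under RA, and to 0.51 with array 1 alone. Nudt21, a subunit of a pre-mRNA cleavage factor, went from 0.38 (SE 0.17) to -0.12 (SE 0.13), and to 0.34 with array 1 alone. The distal members of the replication and translation lists showed the same arrangement. Ctcf, the insulator protein that shapes chromatin loops, had 1.89 on sh-Control RA array 1 and 2.68, 2.55 and 2.46 on arrays 2, 3 and 4. Terf2, a telomere-binding protein, had 0.01 against 0.80, 0.90 and 0.80. Aars, an alanyl-tRNA synthetase, had 5.32 against 6.14, 6.05 and 6.05. At all 3 genes array 1 was the lowest of the 16 arrays. Their differences under RA were 0.05, 0.15 and 0.04 over all arrays, and 0.55, 0.76 and 0.61 against array 1 alone.

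Chromosome 8 carries many genes of DNA replication and cell division. The list held 23 members, with a median difference of 0.46 in vehicle and 0.22 under RA, beside 0.36 and 0.26 over all members. In vehicle all 23 were above 0 and under RA 19 were. The lists were drawn up with earlier results of these data known, and their medians are a description.

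Cdc16 (chr8:13756042-13756101), a subunit of the anaphase-promoting complex that triggers exit from mitosis, had levels of 3.95, 4.12 and 4.13 in sh-Control vehicle and 4.71, 4.80 and 4.87 in sh-SIRT1 vehicle. Under RA it had 4.07, 4.05, 4.08 and 4.09 against 4.57 to 4.68. The groups were separate in both treatments, 1.65-fold and 1.48-fold apart. Cul4a, the scaffold of a ubiquitin ligase that acts in replication, was 1.61-fold higher in vehicle and 1.72-fold higher under RA.

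Tfdp1, the dimer partner of E2F cell cycle factors, was 2.01-fold and 1.53-fold higher. Orc6, of the origin recognition complex, was 1.57-fold and 1.33-fold higher. Gins4 and Mcm5, parts of the replicative helicase, were 1.62-fold and 1.30-fold higher in vehicle and 1.32-fold and 1.36-fold higher under RA. These genes lie before 90 Mb, in the stretch where all sh-Control arrays were near 0. The centrosomal Tubgcp3 was 1.41-fold and 1.55-fold higher. E2f4, a repressor E2F beyond 90 Mb, differed by only 0.04 (SE 0.27) and -0.08 (SE 0.21).

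Smarca5, the motor of ISWI chromatin remodelling complexes, departed from its neighbours. It had levels of 1.50, 1.70 and 1.87 in sh-Control vehicle, 3.11, 2.86 and 2.85 in sh-SIRT1 vehicle and 2.33 to 2.61 in sh-SIRT1 RA. Among sh-Control RA arrays it had 1.14 on array 1 and 2.35, 2.32 and 2.28 on the others. Its probe at 79.2 Mb thus showed the split of the distal stretch although it lies proximal to 90 Mb, and its RA difference was 0.45 over all arrays and 1.33 against array 1 alone.

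The list of mitochondrial, proteasome and translation genes (23 members) had medians of 0.40 in vehicle and 0.16 under RA, with 22 and 19 above 0. Ndufb7, a subunit of respiratory complex I, was 1.49-fold higher in vehicle and 1.26-fold higher under RA. The heat shock co-chaperone Dnajb1 was 1.58-fold and 1.56-fold higher. Vps35, of the retromer that sorts endosomal cargo, was 1.37-fold and 1.23-fold higher. Against array 1 alone the log2 difference under RA was 0.51 instead of 0.33 for Ndufb7 and 0.14 instead of 0.30 for Vps35.

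In the list of metal binding, redox and transport genes (18 members) the medians were 0.32 and 0.18, with 17 and 14 above 0. Hmox1, the haem oxygenase induced by oxidative stress, had 3.00, 3.09 and 3.04 in sh-Control vehicle and 4.03, 3.91 and 3.81 in sh-SIRT1 vehicle, and 2.64 to 2.82 against 3.38 to 3.72 under RA. The groups did not overlap and were 1.83-fold and 1.71-fold apart. Prdx2, a peroxiredoxin, was 1.50-fold and 1.38-fold higher.

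Nqo1, a quinone reductase, was exceptional for a distal gene. It had 1.92, 1.67 and 1.58 in sh-Control vehicle, 3.02, 2.74 and 2.70 in sh-SIRT1 vehicle, 0.72, 1.24, 1.85 and 1.86 in sh-Control RA and 1.91 to 2.85 in sh-SIRT1 RA. Its hairpin difference was 1.09 (SE 0.31) in vehicle and 1.11 (SE 0.25) under RA, or 1.81 against array 1 alone, with no overlap of groups.

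The medians of 4 lists of developmental and stem cell genes lay below that of all members in vehicle. So did that of the metal binding, redox and transport list. The 10 lineage transcription factors had a median of -0.40 in vehicle, with 2 above 0, and of 0.41 under RA, with 9 above 0. Foxc2 and Irx5 of this list were below background in vehicle, so their vehicle differences were not measured, although they enter the median and count. Another 6 of the 17 listed factors were not above background and were left out. The 15 signalling genes had 0.05 and 0.22, with 8 and 9 above 0. The 14 genes of basement membrane, cadherins and matrix enzymes had 0.05 and 0.26, with 9 and 10 above 0. The 16 stem cell and early embryo regulators had 0.23 and 0.28, with 13 and 12 above 0. Whether any list differed from the other members was not tested.

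**Figure D3:**
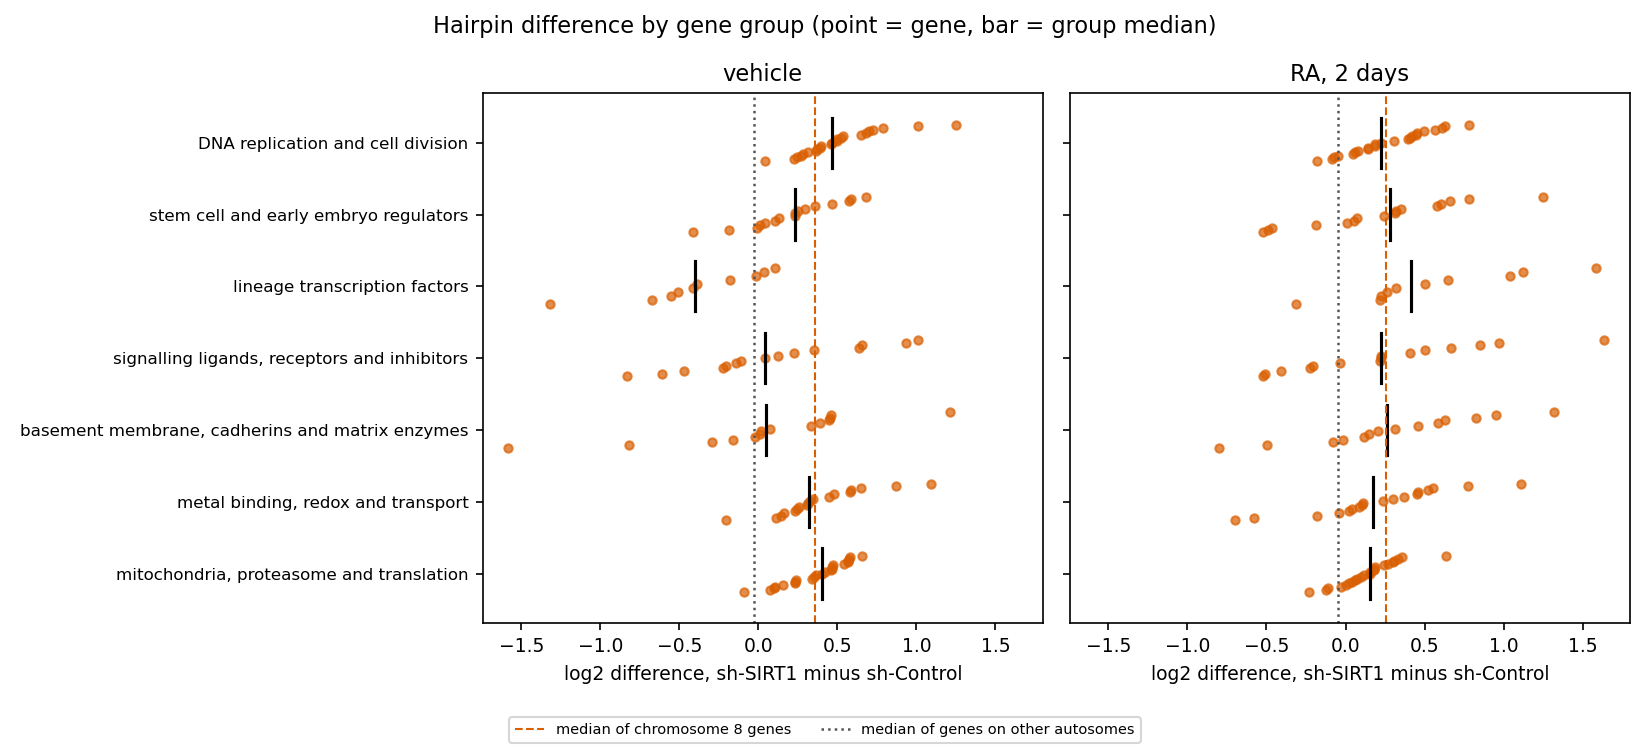
Log2 difference between hairpins (horizontal axis, sh-SIRT1 minus sh-Control) for the members of 7 gene groups (rows), in vehicle (left) and under RA (right). Points are genes and black bars are group medians, with the median of all chromosome 8 genes dashed and of the other autosomes dotted. Points of the replication list all lie right of 0 in vehicle, and those of the lineage factors spread to both sides.

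Some members differed by far more than the chromosome's median. Galnt7, an enzyme that starts O-linked glycans, had levels of -4.66, -4.09 and -3.78 in sh-Control vehicle and -2.46, -2.61 and -2.62 in sh-SIRT1 vehicle, 3.06-fold higher, and was 1.66-fold higher under RA. Ufsp2, a protease of the UFM1 modifier, was 2.68-fold and 1.74-fold higher. Fam149a was 2.57-fold and 2.78-fold higher. Cpe, a carboxypeptidase that matures peptide hormones, was 2.54-fold and 3.89-fold higher. All of them lie between 40 and 70 Mb. Elsewhere, the ephrin ligand Efnb2 was 2.01-fold and 1.96-fold higher and the zinc finger gene Zfp358 1.99-fold and 2.66-fold higher. Tcim, a small regulator of Wnt signalling, was near the chromosome's median in vehicle, with 0.39 (SE 0.51), and 4.73-fold higher under RA. With array 1 as the single sh-Control RA array, the log2 difference under RA was 1.19 instead of 2.24 for Tcim, 1.07 instead of 1.96 for Cpe and 1.25 instead of 0.73 for Galnt7. Over the alternative processing runs the vehicle log2 difference of the dim Galnt7 ran from 0.77 to 1.81.

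A minority of members went the other way. Calb2, the calcium buffer calretinin, had -2.91, -1.75 and -1.63 in sh-Control vehicle and -4.74, -4.34 and -4.41 in sh-SIRT1 vehicle, 5.28-fold lower, and was 3.39-fold lower under RA. The dehydrogenase gene Sdr42e1 was 5.04-fold and 3.29-fold lower. At these genes the vehicle groups did not overlap, and against array 1 alone the RA difference of Calb2 was -0.96 instead of -1.76. Over the alternative processing runs the log2 difference of Calb2 ran from -2.81 to -1.43 in vehicle and from -2.03 to -0.76 under RA.

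RA in each line was a comparison that did not choose the chromosome. In sh-Control cells 186 members rose and 204 fell in limma, 40.6% of members, where 46.8% of all genes were called, 19.7% higher and 27.2% lower. When array 1 stood alone for the treated group, 139 rose and 236 fell, where 36.6% of all genes were called. In sh-SIRT1 cells 194 rose and 315 fell, 53.0% of members against 58.2% of all genes, 23% higher and 35.3% lower. Of the members, 143 were higher in both lines, 163 lower in both, 2 opposite, and 370 were called in neither, or 14.9%, 17.0%, 0.208% and 38.5%. Over all genes these shares were 15.7%, 22.2%, 0.421% and 33.2%. Under quantile normalization higher calls made up 48.4% of the member calls in sh-SIRT1, instead of 38.1%, and 55.1% in sh-Control (210 higher and 171 lower), instead of 47.7%. The distal stretch again depended on the sh-Control arrays. In sh-Control cells the median RA response was -0.17 before 90 Mb and 0.09 beyond it, but with array 1 alone the last 4 windows had -0.20, -0.29, -0.08 and -0.27. In sh-SIRT1 cells the medians were -0.17 and -0.06.

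Among the members with large RA responses, Adgra2 (chr8:25878878-25878937), a receptor that acts in Wnt signalling of brain vessels, had levels of -3.11, -4.12 and -3.79 in sh-Control vehicle and 0.65, 0.61, 0.87 and 0.89 under RA. In sh-SIRT1 cells it had -3.28, -3.92 and -3.71 in vehicle and 1.46 to 1.84 under RA. No treated array came near a vehicle array, and the log2 rise was 4.43 (SE 0.20, limma adjusted p 5.4e-09) in sh-Control and 5.22 (SE 0.19, limma adjusted p 4.3e-10) in sh-SIRT1.

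Col4a1 and Col4a2 encode the chains of the main basement membrane collagen and lie head to head on the chromosome. Col4a1 had -3.23, -3.78 and -3.75 in sh-Control vehicle and -3.52, -3.54 and -3.65 in sh-SIRT1 vehicle. Under RA it had 3.24, 0.95, -0.86 and -0.69 in sh-Control, and 0.97 to 2.49 with a median of 1.01 in sh-SIRT1. The groups of each line were separate, but the sh-Control RA arrays spread widely, with array 1 highest. The rises were 4.25 (SE 0.76) and 5.05 (SE 0.70), with limma adjusted p of 0.00048 and 3.3e-05. Col4a2 rose by 3.74 (SE 0.82) and 4.98 (SE 0.76), and its array order was the same as that of Col4a1 in the sh-Control RA group. With only array 1 treated, the sh-Control rises were 6.83 for Col4a1 and 6.48 for Col4a2.

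Hhip encodes a membrane protein that binds Hedgehog ligands and is a target of the pathway. It was above background on only 1 of 3 sh-Control vehicle and 2 of 3 sh-SIRT1 vehicle arrays. Its fitted rise thus rests in part on signals not well above background. Hhip met the membership rule only through RA groups, where it is high, so its p-values are a description. It rose by 3.65 (SE 0.91, limma adjusted p 0.0047) in sh-Control and 5.50 (SE 0.84, limma adjusted p 7.1e-05) in sh-SIRT1. The sh-Control call was lost with another background correction, at 1.46 and an adjusted p of 0.090, and with array 1 as the single treated array, at 2.47 and 0.19. Pdlim3, a muscle cytoskeleton protein, rose by 4.45 (SE 0.58) and 4.20 (SE 0.53). Pdlim3 was not well above background on every array either, so these fitted sizes may rest in part on dim signals.

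Other genes rose from below background, so that only bounds can be given. For each bound, the vehicle side was taken as the dimmest signal that still counted as above background there. Foxc2, a forkhead factor of mesoderm and vessel development, was at least 2.56-fold higher in sh-Control and at least 6.46-fold higher in sh-SIRT1. The endothelin receptor Ednra was at least 4.85-fold and 10.4-fold higher, and the semaphorin and VEGF co-receptor Nrp1 at least 1.24-fold and 4.48-fold higher. The homeobox gene Irx5 was at least 1.14-fold and 1.88-fold higher, with 3 of 4 sh-Control RA arrays above background. With normexp background correction the sh-Control calls of Foxc2 (adjusted p 0.14), Nrp1 (0.33) and Irx5 (0.64) were lost, as was Irx5 in sh-SIRT1 (0.24). The sh-Control call of Irx5 was also lost with array 1 as the single treated array (0.22).

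Among matrix enzymes and secreted factors, Plat, the tissue plasminogen activator, rose by 2.19 (SE 0.35) in sh-Control and 3.67 (SE 0.33) in sh-SIRT1. Mmp15 rose by 1.86 (SE 0.19) and 2.00 (SE 0.17), Mmp2 by 0.92 (SE 0.25) and 1.95 (SE 0.23), and the lipoprotein lipase Lpl by 1.74 (SE 0.37) and 2.46 (SE 0.34). With array 1 as the single treated array the sh-Control value of Lpl was 2.72 and that of Mmp2 was 0.46, which lost its call (limma adjusted p 0.37). Nkd1, an inhibitor in the Wnt pathway, rose by 1.96 (SE 0.17) and 2.06 (SE 0.15). The matrix list counted 8 called higher and 1 lower of 14 members for sh-Control, where 19.7% of all genes were higher and 27.2% lower; for sh-SIRT1 it counted 8 and 3, where the shares were 23% and 35.3%. The signalling list had 6 and 3 of 15, and 6 and 4.

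Markers of other cell types rose with RA as well. Over 7 primitive endoderm markers, the mean level per array was -3.53 to -3.37 in sh-Control vehicle and -1.80 to 1.38 in sh-Control RA, and -4.09 to -3.82 and -1.29 to -0.57 in sh-SIRT1. In sh-SIRT1 vehicle 5 of the 7 and in sh-SIRT1 RA 6 of the 7 were above background on all arrays, with none below it on all arrays of any group. Over 5 measured fibroblast markers, the mean per array was -3.39 to -3.03 and -2.93 to 0.86 in sh-Control vehicle and RA, and -4.32 to -3.79 and -1.16 to 0.79 in sh-SIRT1. Dcn was at background in vehicle in both lines and Col3a1 in sh-SIRT1 vehicle. The part of such cells in the rise of the collagen and protease genes was not tested, and in bulk RNA fewer cells of a type and less RNA per cell cannot be told apart.

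Other lineage and signalling genes rose more modestly. Irf8, an interferon factor of blood cells, rose by 1.37 (SE 0.29) and 1.23 (SE 0.27). Cbln1, a secreted synapse organizer, rose by 1.55 (SE 0.18) and 1.85 (SE 0.17), and the chemokine Cx3cl1 by 1.34 (SE 0.21) and 0.91 (SE 0.19). Tox3 rose by 2.44 (SE 0.32) in sh-SIRT1, while its 0.89 (SE 0.34) in sh-Control (limma adjusted p 0.047) lost its call in 17 alternatives. Slc25a4, the mitochondrial ADP/ATP carrier, rose by 0.98 (SE 0.16) and 1.08 (SE 0.15).

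**Figure D4:**
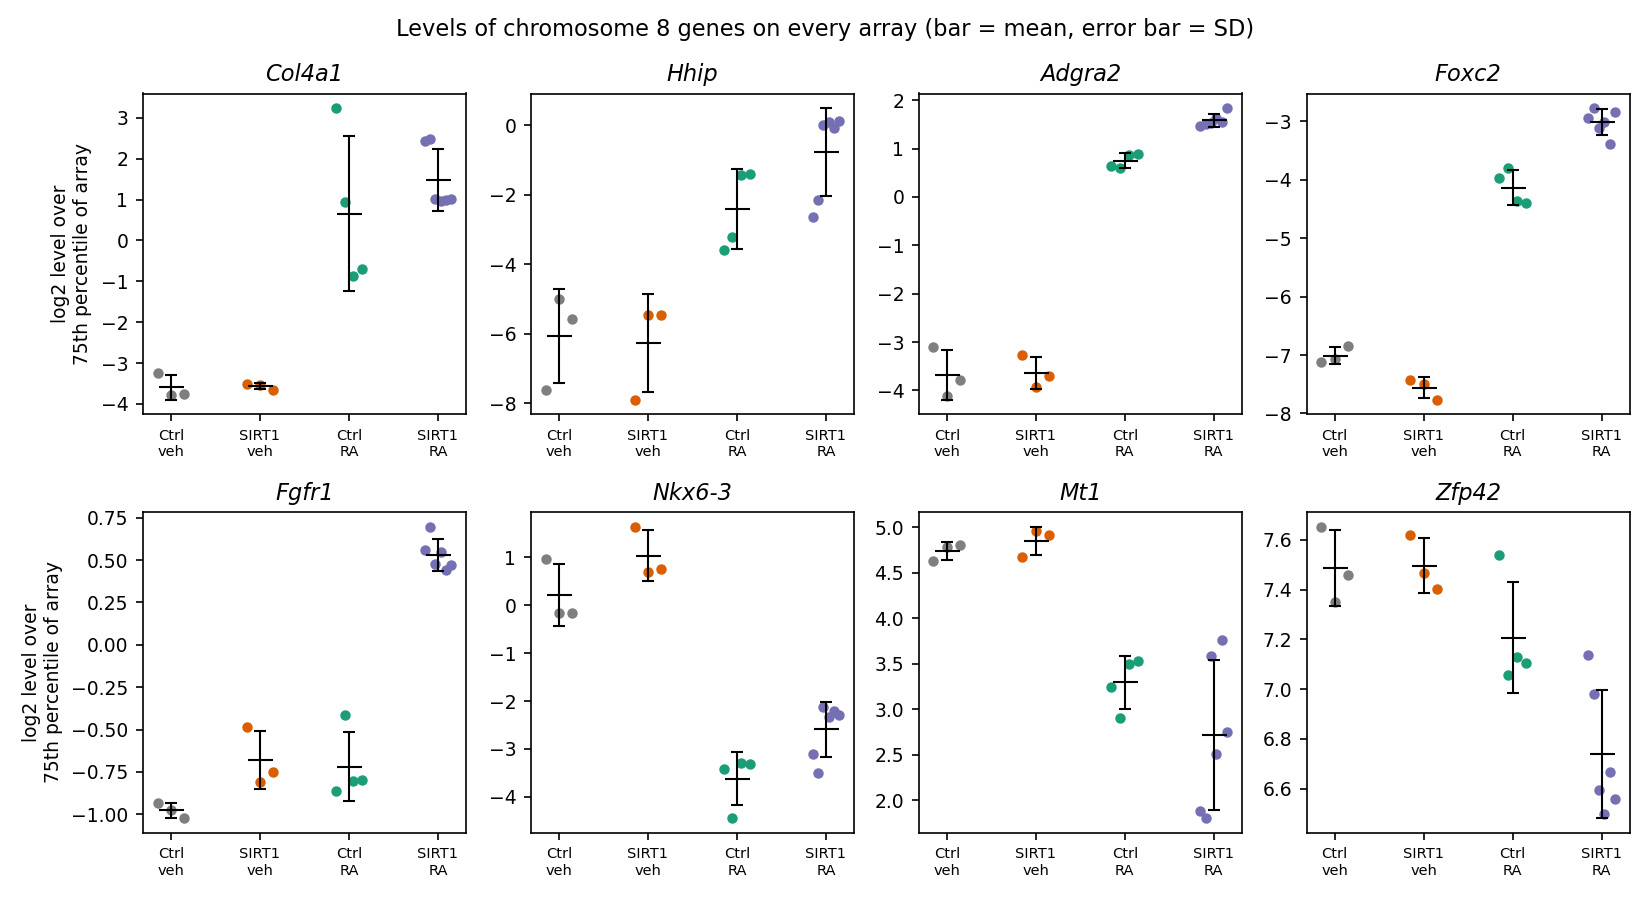
Log2 level over the 75th percentile of the array (vertical axis, with its own range for each gene) of 8 chromosome 8 genes on every array of the 4 groups (horizontal axis; Ctrl, sh-Control; SIRT1, sh-SIRT1; veh, vehicle). Points are arrays, horizontal bars means and error bars SD. Col4a1, Hhip, Adgra2 and Foxc2 are high in both RA groups, Nkx6-3 and Mt1 are low there, and Fgfr1 is highest on the sh-SIRT1 RA arrays.

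Genes that fell were led by Nkx6-3, a homeobox gene of the gut. It had 0.96, -0.16 and -0.16 in sh-Control vehicle and -3.43, -4.45, -3.28 and -3.32 under RA, and 1.65, 0.69 and 0.77 against -3.49 to -2.12 in sh-SIRT1. The groups were far apart, with changes of -3.83 (SE 0.41, limma adjusted p 5.6e-06) and -3.63 (SE 0.38, limma adjusted p 2.4e-06). The zinc finger gene Zmat4 fell by 2.87 (SE 0.15) and 3.02 (SE 0.14), and Exoc3l by 2.75 (SE 0.22) and 2.47 (SE 0.21).

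The pluripotency genes on the chromosome changed less. Zfp42, known as Rex1 and a marker of naive ES cells, is shown with the bases upstream of its start because these hold an octamer, the motif bound by Oct4. The stretch is chr8:43307010-43307259 of GRCm38.p6 from RefSeq, minus strand, 250 bases before the start, with ATTTGCAT in capitals.

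Zfp42: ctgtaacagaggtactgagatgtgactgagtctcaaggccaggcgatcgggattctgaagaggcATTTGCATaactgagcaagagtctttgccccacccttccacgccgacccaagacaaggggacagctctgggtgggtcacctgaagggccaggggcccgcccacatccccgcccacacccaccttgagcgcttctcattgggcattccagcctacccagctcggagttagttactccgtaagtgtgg

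ATTTGCAT, searched on both strands, occurs in 1.60% of 32851 RefSeq upstream stretches of this length. A match is a description of the letters, not a measured binding site. Zfp42 had 7.65, 7.35 and 7.46 in sh-Control vehicle and 7.54, 7.06, 7.13 and 7.11 under RA, and 7.62, 7.47 and 7.40 against 6.50 to 7.14 in sh-SIRT1. The sh-Control groups overlapped, with a change of -0.28 (SE 0.16, limma adjusted p 0.17), while in sh-SIRT1 it fell by 0.76 (SE 0.15, limma adjusted p 0.00061) with no overlap.

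Sall1, a zinc finger partner of the ES cell network, fell by 1.00 (SE 0.18) and 1.56 (SE 0.16). The immediate early gene Junb fell by 1.13 (SE 0.31) and 1.25 (SE 0.28). Klf2 fell by 0.44 (SE 0.14) in sh-Control, a call lost in 7 alternatives, and had a difference of 0.04 (SE 0.13) in sh-SIRT1. Cdh1, the adhesion molecule E-cadherin, had differences of -0.17 (SE 0.11) and -0.23 (SE 0.11), which did not pass. Smad1, which carries BMP signals, rose by 0.51 (SE 0.13) in sh-Control and had 0.14 (SE 0.12) in sh-SIRT1. With array 1 as the single treated array the sh-Control calls of Junb (-0.57, limma adjusted p 0.22) and Smad1 (0.25, 0.28) were lost. In this list 1 member of 16 was called higher and 6 lower by RA for sh-Control; for sh-SIRT1 it was 3 and 5. Of the replication list, 1 of 23 was called higher and 7 lower in sh-Control, and none higher and 15 lower in sh-SIRT1. The shares of all genes called are those given for the matrix list.

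Mt1 and Mt2 are neighbouring metallothionein genes whose products buffer zinc and copper. Their upstream stretches are shown because both genes fell in sh-SIRT1 and the family is known for metal response elements. The core of these is TGCRCNC, where R is A or G. The looser TGCNCNC was searched here on both strands, and its matches are given in capitals. Both are plus strand, 250 bases before the start, from RefSeq on GRCm38.p6, at chr8:94178839-94179088 for Mt1 and chr8:94172368-94172617 for Mt2.

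Mt1: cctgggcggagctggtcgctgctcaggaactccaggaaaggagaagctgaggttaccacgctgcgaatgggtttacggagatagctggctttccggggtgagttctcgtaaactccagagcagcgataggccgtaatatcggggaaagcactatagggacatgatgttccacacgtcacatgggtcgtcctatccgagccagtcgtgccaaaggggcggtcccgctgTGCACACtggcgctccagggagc

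Mt2: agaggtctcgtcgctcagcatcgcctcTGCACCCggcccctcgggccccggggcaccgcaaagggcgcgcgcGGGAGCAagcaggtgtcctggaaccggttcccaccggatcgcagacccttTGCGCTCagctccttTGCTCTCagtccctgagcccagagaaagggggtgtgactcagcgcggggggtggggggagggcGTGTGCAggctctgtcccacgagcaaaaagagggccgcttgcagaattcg

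The Mt1 stretch holds 1 match and the Mt2 stretch 5. The motif is common, with at least 1 match in 44.4% of the 32851 stretches and 4 or more in 1.28%. Mt1 had 4.63, 4.78 and 4.80 in sh-Control vehicle and 3.25, 2.90, 3.50 and 3.53 under RA, and 4.67, 4.96 and 4.92 against 1.80 to 3.76, with a median of 2.63, in sh-SIRT1. It fell by 1.44 (SE 0.40, limma adjusted p 0.0088) and 2.14 (SE 0.37, limma adjusted p 0.00020), and the sh-Control call was lost with array 1 as the single treated array (-1.49, adjusted p 0.10).

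Mt2 had 7.47, 7.38 and 7.41 in sh-Control vehicle and 5.98, 5.99, 7.17 and 7.10 under RA, a change of -0.86 (SE 0.52, limma adjusted p 0.19). In sh-SIRT1 it had 7.56, 7.59 and 7.54 in vehicle and 4.61 to 6.89 under RA, and fell by 1.70 (SE 0.48, limma adjusted p 0.0073), a call lost with quantile normalization at an adjusted p of 0.052. All treated arrays of each line lay below its vehicle arrays at both genes, but the treated arrays spread over more than 1 log2 unit at Mt2 in both lines.

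The difference of RA responses between the lines equals the hairpin difference under RA minus that in vehicle. Those hairpin differences chose the chromosome, so the calls here and below are a description. A difference of responses was called at 21 members, 11 more positive and 10 more negative in sh-SIRT1. This was 2.19% of members, where 3.59% of all genes were called, 1.71% higher and 1.88% lower. The count was 58 with the replicate number as a block, where 9.06% of all genes were called, 3 with the slide as a block and 0 with normexp background correction, where 95 members had an unadjusted p under 0.05 in limma, beside 182 without that correction. Without sh-Control RA array 1 it was 100, and without sh-Control vehicle array 3 it was 10. Each call below was lost with normexp correction, at an adjusted p of 0.076 to 0.97.

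Fgfr1, a receptor of fibroblast growth factors, had levels of -0.94, -0.97 and -1.02 in sh-Control vehicle and -0.86, -0.42, -0.80 and -0.80 under RA. In sh-SIRT1 it had -0.49, -0.81 and -0.75 in vehicle and 0.44 to 0.70 under RA. The rise was separate from vehicle in sh-SIRT1, at 1.21 (SE 0.10), against 0.26 (SE 0.11) in sh-Control, and the difference of 0.96 (SE 0.15) had a limma adjusted p of 0.0080. Foxc2 was also called (limma adjusted p 0.0031), but its vehicle levels were below background, so the size of that difference was not measured. Between the RA groups Foxc2 was 2.18-fold higher in sh-SIRT1, with log2 differences of 0.45 to 1.24 over the alternative processing runs.

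Tll1, a metalloprotease that processes matrix and BMP antagonists, was below background on all arrays of the other 3 groups and above it on all 6 sh-SIRT1 RA arrays. It was at least 3.29-fold higher than in sh-SIRT1 vehicle and at least 3.66-fold higher than in sh-Control RA. No difference of responses was measured for Tll1, since its other groups were below background. The phosphatase gene Dusp26 differed by 2.52 (SE 0.59, limma adjusted p 0.034), a call lost in 14 of 25 alternatives. The sh-Control vehicle arrays had Dusp26 at -2.44, -0.68 and -0.73, the sh-SIRT1 vehicle arrays had it at -4.44, -2.80 and -2.92, and under RA all 10 arrays lay between -1.69 and -0.46. Lyl1, a helix-loop-helix factor of blood cells, differed by 1.54 (SE 0.35, limma adjusted p 0.028), with an adjusted p of 0.052 under the replicate block and the call lost in 11 of 25 alternatives. With array 1 as the single sh-Control RA array the differences were 1.91 for Dusp26 and 0.80 for Lyl1, and neither passed. Lyl1 fell by 2.01 (SE 0.25) in sh-Control cells, or by 1.26 with array 1 alone, from levels that were 2.50-fold higher in vehicle than those of sh-SIRT1.

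The other genes named here had a more negative response in sh-SIRT1. The centrosomal Cep44 differed by -0.96 (SE 0.16, limma adjusted p 0.0091), Marveld3, a tight junction protein, by -0.87 (SE 0.17, limma adjusted p 0.015) and Heatr3, a factor of ribosome assembly, by -0.86 (SE 0.17, limma adjusted p 0.016). The calls of Marveld3 and Heatr3 were lost with array 1 as the single sh-Control RA array (adjusted p 0.098 and 0.14). In each case the sh-SIRT1 vehicle arrays were the high ones. Heatr3, for example, had -0.93, -1.22 and -1.31 in sh-Control vehicle, 0.01, -0.26 and -0.36 in sh-SIRT1 vehicle, -1.27 to -0.87 in sh-Control RA and -1.11 to -0.84 in sh-SIRT1 RA. The 2 RA groups overlapped.

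With the replicate block, further response differences passed, in limma, at Hhip (1.44, adjusted p 0.018), Adgra2 (0.74, 0.023), Plat (1.50, 0.047), Tox3 (1.53, 0.049) and Mt2 (-1.13, 0.046). Without the block these were 1.84, 0.80, 1.48, 1.55 and -0.84, none of which passed. The Hhip values rest in part on vehicle signals not well above background. Nrp1 also passed only with the block, but it was below background in vehicle in both lines, so no size is given.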

How the data were processed

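RNA of E14 cells was hybridised to 16 1-colour Agilent mouse arrays. The deposited files hold Cy3 intensity, per the file headers with spatial and multiplicative trends removed by the authors with Feature Extraction, version 9.5 per the submitters' processing notes, background correction switched off and surrogate values for signals too near background; probe positions are on build mm7, so exon or UTR annotation was not used here. The deposited series matrix equals these intensities. Control spots were left out, outlier spots set to missing (3 members lack a value on some array), the log2 of the processed intensity was taken minus the 75th percentile of the array, and spots of a probe were averaged. Names came from the files or a RefSeq table; 643 members lie on chromosome 8 there too, 2 elsewhere, and 316 were not matched, and 503 have a RefSeq promoter entry. Differences were fitted over all 18282 genes with limma 3.58.1 in R 4.3.3 (lmFit, eBayes, Benjamini-Hochberg adjustment, threshold 0.05) on all 16 arrays without a block, and described by medians and 10 Mb windows of at least 10 genes. The number of arrays limits precision.

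The labels number the arrays but state no pairing. Within a treatment, deviations of same-numbered arrays from their group means correlated at 0.363 to 0.541 in all 7 pairs over genes. Between treatments of a line, deviations of same-numbered arrays correlated at only -0.211 to 0.219. Differently numbered arrays were not compared in this way, so whether the number pairs the samples was not tested.

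Members, gene lists and named genes were chosen with earlier results of these data known. Named genes were, by rule, those with the largest differences or responses per comparison, the gene nearest each window's median, and list members. Alternatives were background correction, normalization, filters, probe choice, left-out arrays, window size, slide and replicate block. The fit was tested on simulated data, with known changes put into the sh-SIRT1 vehicle arrays. It called 53% of changes of 1 log2 unit and 88% of changes of 2. Genes that were not called may therefore still differ.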

Additional observations from a re-analysis of the deposited data

Results flagged for a closer look

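For groups of 4 and 6 arrays, a value was picked out where its gap to the nearest other array was too large a share of the group's range by Dixon's test; this was looked at in 170 groups of values and met in 18, and chance alone picks out about 1 in 20.

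In the sh-Control RA group the ratio was 0.942 for Smarca5, 0.885 for Terf2 and 0.893 for Aars, where array 1 was lowest, and 0.848 for Zfp42, where array 1 was highest. Array 2 was the one apart at Efnb2 (0.959), Tox3 (0.896) and Fgfr1 (0.855), where it was highest, and at Nkx6-3 (0.876), Exoc3l (0.8294) and Irf8 (0.853), where it was lowest.

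In the sh-SIRT1 RA group an array stood apart in the chromosome 8 windows of 0 to 10 Mb (0.632), 60 to 70 Mb (0.692), 90 to 100 Mb (0.630) and 120 to 130 Mb (0.734). It was array 1 in the first of these windows, array 2 in the second, array 6 in the third and array 5 in the last. The same group had an array apart at Dnajb1 (0.676), Terf2 (0.681), Exoc3l (0.765) and Nkd1 (0.705).

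A difference of RA responses between the lines was called by limma at Fgfr1 (0.96), Dusp26 (2.52), Lyl1 (1.54), Cep44 (-0.96), Marveld3 (-0.87) and Heatr3 (-0.86). These values are log2 of sh-SIRT1 minus sh-Control. The calls are a description, since the hairpin differences behind them chose the chromosome. All of them were lost with normexp background correction. Foxc2 was also called, but its fitted 1.67 rests on vehicle groups below background and is no measured size. For Tll1 the fit gave 2.96, with every group but sh-SIRT1 RA below background. Tll1 was kept only through that group, where it is high, so its test cannot decide whether the responses differ.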

How the results depend on the processing

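The chromosome 8 median stayed above 0 in both treatments in every alternative run, but sizes and counts moved. The chromosome 8 median in vehicle was 0.25 with normexp and 0.22 with no filter on dim probes, and under RA it was 0.16, 0.17, 0.37 with sh-Control RA arrays 2, 3 and 4 left out together, 0.15 within slide 1 and 0.41 within slide 4. Leaving out each array in turn gave 0.32 to 0.38 in vehicle and 0.23 to 0.28 under RA.

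The lowest chromosome 8 window in vehicle was 0.019 without the filter, 0.070 with 5 Mb and 0.28 with 20 Mb windows, and 0.10 to 0.23 with an array left out; under RA it was -0.11 to 0.05. The highest window elsewhere in vehicle was 0.25 with normexp, 0.46 with quantile normalization, 0.44 scaled off chromosome 8, 0.22 without the filter, 0.50 and 0.21 with 5 and 20 Mb windows, and 0.39 and 0.46 within slides 1 and 3; under RA it was 0.23, 0.40 (quantile), 0.13 (no filter), 0.40 (arrays 2, 3 and 4 left out), 0.24 (20 Mb), and 0.26 and 0.45 within slides 1 and 4. With an array left out it was 0.40 to 0.48 and 0.32 to 0.38.

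With normexp, the counts of members called higher and lower were 58 and 2 in vehicle, 139 and 7 under RA and 110 and 101 for RA in sh-Control, and 0 differed in RA response. The replicate block gave 355 and 37 in vehicle and 58 response differences, and the slide block 3 response differences. Leaving out arrays 2, 3 and 4 gave 19 called lower under RA. With each array left out, the higher and lower counts were 136 to 324 and 4 to 24 in vehicle, 257 to 311 and 13 to 62 under RA, 146 to 234 and 155 to 212 for RA in sh-Control, 166 to 217 and 237 to 347 for RA in sh-SIRT1, and response differences 10 to 100.

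With arrays 2, 3 and 4 left out the hairpin differences under RA of Cyb5b (0.54) and Gnpat (0.51) were positive instead of negative. Of 128 calls for named genes, 73 held in every alternative run and 55 were lost in at least 1; none turned around. Normexp moved the median RA response of all genes from -0.13 to -0.01 in sh-SIRT1. A block over both treatments, added after seeing the data, left the RA counts within 1.5 times. The causes were not tested.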
